A study of Mus musculus with 8 samples.

Results

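The complement and coagulation cascades were described through 42 genes in mouse liver, of 20136 genes tested in the series. They are 22 genes of complement and 20 genes of coagulation and fibrinolysis, chosen by symbol and sorted by their place in the cascade into 10 arms. The array carried 55 probes for them. A probe was taken as detected when the scanner software marked it well above background, and testing required that the brightest probe of a gene was detected throughout the 4 arrays of 1 strain or of both. Of the 42 genes, 41 were tested, and each of these 41 was detected on all 8 arrays. The exception was Cfd, which encodes factor D.

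RNA came from whole liver of male NZO mice (NZO/HiBomDife, an inbred strain that becomes obese and diabetic) and of male C57BL/6 mice (B6, lean and resistant to diabetes). All of them were 6 weeks old and had been fed a high fat diet with 45% fat, so no group on standard chow is part of the comparison. Each strain had 4 mice and each mouse 1 array. The study asked which genes differ in expression between both strains, in order to relate them to variants in the NZO genome. Values are levels on a log2 scale, at which 0 is the 75th percentile of the array and 1 unit is a doubling of the signal. Levels are listed in the order of NZO mice 003, 007, 009 and 011 and of B6 mice 009, 010, 011 and 015.

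Hepatocytes secrete most complement and clotting proteins into the blood as inactive precursors. Complement starts from antibody bound by C1q (classical pathway), from sugars bound by mannose-binding lectins (lectin pathway) or from spontaneous turnover of C3 (alternative pathway), and all routes cleave C3 and end in the membrane attack complex. Coagulation runs through serine proteases to thrombin, which turns fibrinogen into fibrin, and plasmin dissolves the clot again. C1q and properdin are known for their synthesis by macrophages, which in liver are the Kupffer cells.

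The labelled tissue was borne out by hepatocyte markers. All 5 of them (Alb, Ttr, Apoa1, Cps1 and Tat) were detected on all arrays, and none of them passed the test between the strains. Their summed signal, in multiples of the 75th percentile, was 3917, 3871, 3854 and 3789 in NZO and 3002, 3766, 3203 and 3652 in B6, so that the strains did not overlap, with Alb the brightest. In bulk liver, fewer cells of a type and less RNA per cell cannot be told apart. One array stood apart within its strain. Levels of the acute-phase gene Saa1 were 8.19, 6.70, 7.33 and 9.49 in the B6 mice, with the highest value in mouse 015. The same mouse had the highest B6 level of Orm1 (7.48, against 6.55 to 6.82 in the other B6 mice), Lcn2 (4.28, against 1.13 to 2.29) and the macrophage gene Marco (4.89, against 3.41 to 3.88). A further array, that of NZO mouse 007, had a summed signal of 17.7 for 4 skeletal muscle genes, against 0.136 to 0.302 in the other NZO mice and 0.396 to 5.70 in B6. Called results that changed without B6 mouse 015 are given with and without it, and all called genes were also fitted without NZO mouse 007.

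In NZO, 2 of the 41 genes were higher and 5 were lower after adjustment of limma's p-values over all genes (adjusted p of at most 0.05, referred to as called). Among all genes tested, 7.35% were called higher and 7.43% were called lower. The higher genes were Mbl2, encoding a mannose-binding lectin, and Fga, encoding the alpha chain of fibrinogen. The lower genes were C1qa and C1qc, encoding chains of C1q, Cfp, encoding properdin, Hc, encoding complement C5, and C6. Each called gene except Fga was measured by only 1 probe. Of these 7 genes, 6 belong to complement, where 1 gene was higher and 5 were lower out of 21 tested. Of the 20 coagulation genes, only Fga was called. The 7 called genes kept their direction within both scan days and within the slide that held both strains. This was fixed in advance, since the arrays of the strains did not overlap for any of them, so it does not test an effect of scan day or slide. With the slide as a fixed term, which leaves only the 3 arrays of that slide to compare the strains, none of the 41 genes was called, and 358 genes of all were called higher and 591 lower.

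**Figure D1:**
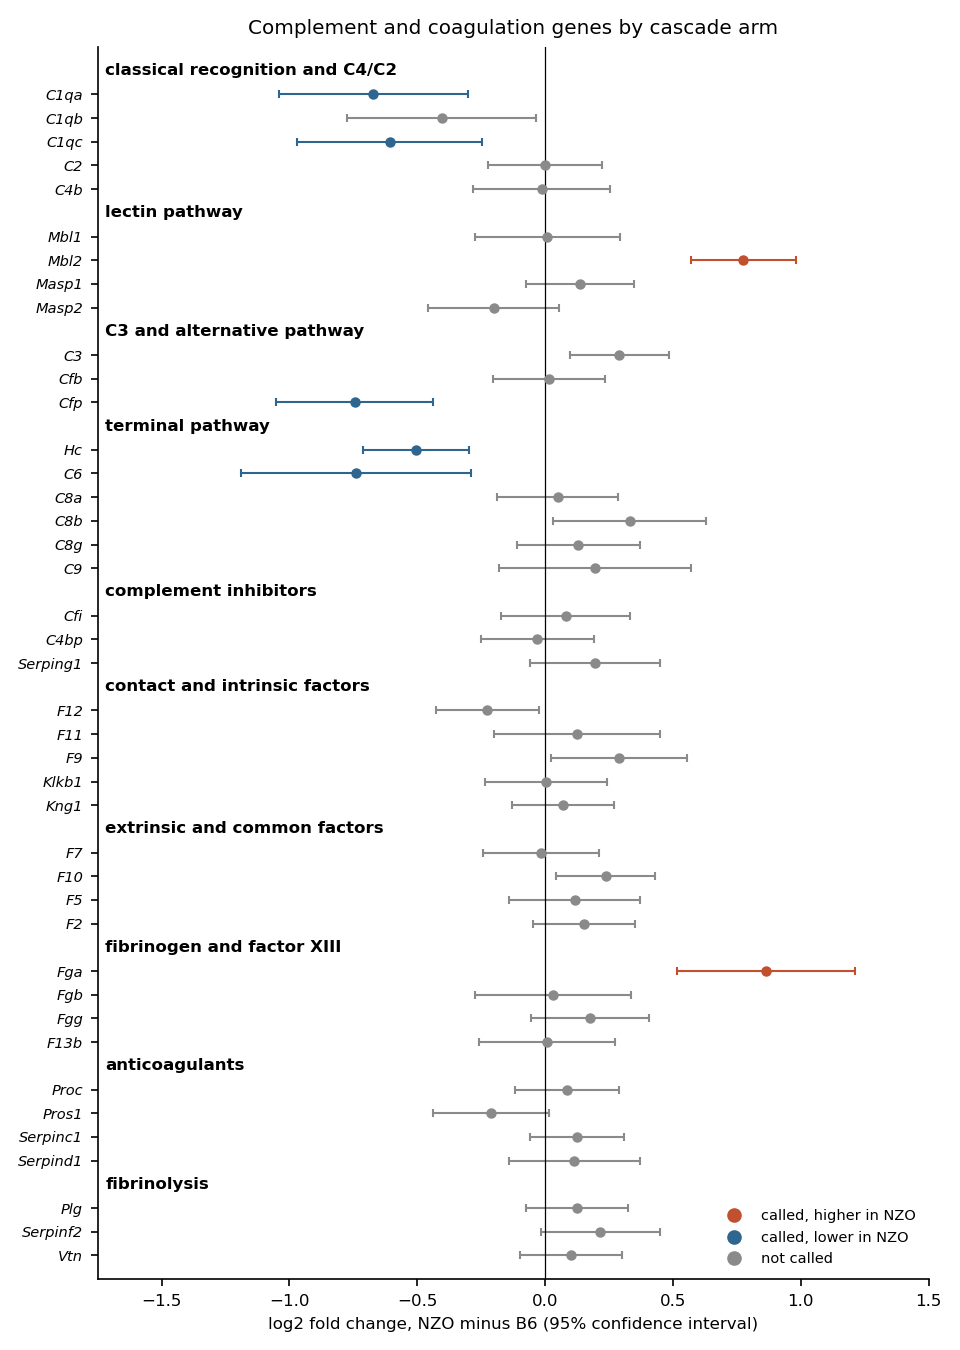
Log2 fold change of NZO against B6 (x axis) for the 41 tested genes, grouped by cascade arm; points are estimates of limma and bars are 95% confidence intervals, with 4 mice in each strain. Mbl2 and Fga lie to the right of 0, and C1qa, C1qc, Cfp, Hc and C6 to the left.

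At the thresholds for differential expression named in the methods (unadjusted p of at most 0.05 and a log2 fold change of at least 0.7 in either direction), Mbl2 and Fga were higher, and Cfp and C6 were lower. The background at these thresholds was 5.23% of all genes higher and 6.61% lower. The 4 NZO arrays lay above the 4 B6 arrays in 5 genes of the cascades, and below them in 8. The corresponding shares of all genes were 11.9% and 10.5%. The median log2 fold change was 0.08 over the 41 genes and 0.03 over all genes tested. It was 0.01 for complement and 0.11 for coagulation, where 17 of 20 values were above 0, against 10740 of 20136 for all genes. Signs of small differences depended on the processing of the arrays. Of the 20 coagulation genes, 14 changed sign with the deposited table as given and 2 with that table set to the 75th percentile. The number was 7 with quantile normalization and 3 with normexp background correction. Of the 41 genes, 29 belonged to the 10% of genes with the brightest signal, a class of 2014 genes with 182 higher and 68 lower in NZO and a median log2 fold change of 0.12. Among those 29 genes, 2 were higher and 1 was lower, with a median log2 fold change of 0.11. The other 12 tested genes held 0 higher and 4 lower, with a median of -0.11, beside 7.35% higher and 7.43% lower of all genes tested.

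The classical pathway begins with C1q, which is built from the products of C1qa, C1qb and C1qc, neighbouring genes on chromosome 4. Their probes lie at chr4:136452409-136452468, chr4:136436578-136436637 and chr4:136445766-136445825 (mm9). C1qa levels were 2.99, 3.09, 2.65 and 2.64 in NZO and 3.34, 3.38, 3.48 and 3.87 in B6. C1qb levels were 2.99, 2.97, 2.73 and 2.77 in NZO and 3.11, 3.12, 3.12 and 3.73 in B6. C1qc levels were 3.12, 3.31, 2.91 and 2.93 in NZO and 3.5, 3.47, 3.69 and 4.05 in B6. For each chain, all NZO arrays lay below all B6 arrays, with B6 mouse 015 at the top.

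C1qa was 1.59-fold lower in NZO (log2 fold change -0.67, SE 0.16, adjusted p = 0.0259). C1qc was 1.52-fold lower (-0.61, SE 0.16, adjusted p = 0.0362). C1qb had a log2 fold change of -0.40 (95% confidence interval -0.77 to -0.03) and did not pass the adjustment (adjusted p = 0.144). Both calls depended on single mice. Without B6 mouse 015 the adjusted p was 0.0506 for C1qa (log2 fold change -0.55) and 0.0621 for C1qc (-0.48), and the log2 fold change of C1qb was -0.25 (adjusted p = 0.194). In fits that each lacked 1 mouse, C1qa stayed past the threshold without NZO 003, NZO 007, B6 009 or B6 010, and C1qc without NZO 007 or B6 010. On the first scan day (3 NZO and 2 B6 arrays) the difference was -0.86 for C1qa and -0.77 for C1qc. On the second (1 NZO array, that of mouse 007, and 2 B6 arrays) it was -0.32 and -0.28. With a fixed term for scan day, the adjusted p was 0.0426 for C1qa and 0.0572 for C1qc.

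Markers of Kupffer cells moved in the same direction. The list holds 8 genes (Clec4f, Vsig4, Timd4, Adgre1, Cd5l, Marco, Csf1r and Cd68), each of them detected on all 8 arrays, and 5 were lower in NZO and none higher, with a median log2 fold change of -0.57. Clec4f, a lectin receptor of Kupffer cells, was 2.19-fold lower (adjusted p = 0.000804), Marco, a scavenger receptor, 3.55-fold lower (adjusted p = 0.0114), and Cd5l 1.64-fold lower (adjusted p = 0.00311). Vsig4, Timd4 and Csf1r did not pass the test. The summed signal of the list, in multiples of the 75th percentile, was 141, 143, 118 and 124 in NZO and 180, 195, 225 and 271 in B6, and Cd5l gave the brightest signal of the list. Without B6 mouse 015, 4 of the 8 markers were lower, with Cd68 no longer called (adjusted p = 0.0999), and the median was -0.45. The part of these markers in the lower C1q levels was not tested.

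**Figure D2:**
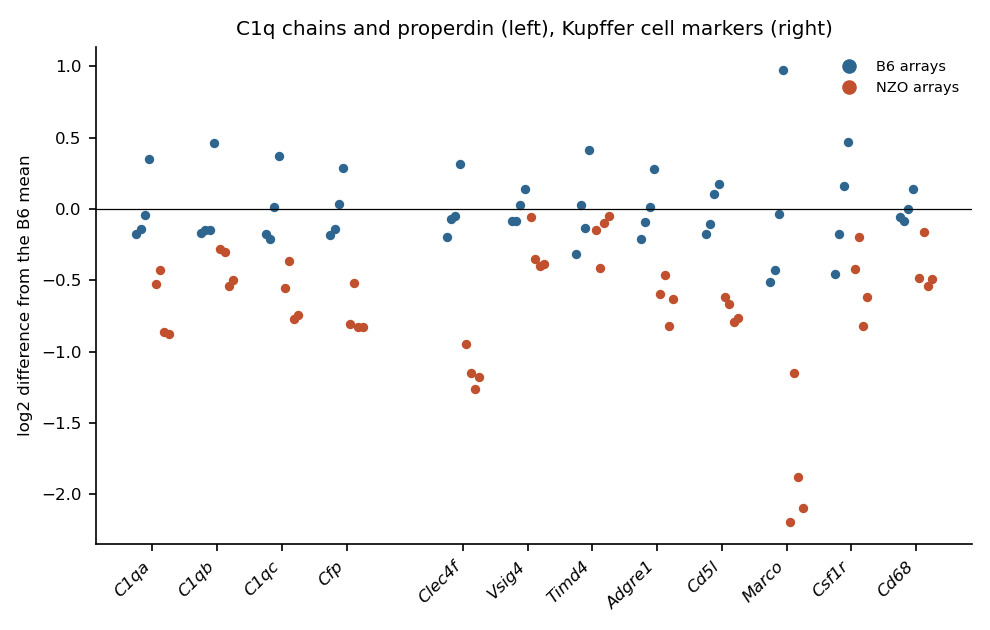
Log2 difference of each array from the B6 mean (y axis) for the C1q chains and properdin on the left and the 8 Kupffer cell markers on the right; blue points are the 4 B6 arrays and red points the 4 NZO arrays. NZO arrays lie below the B6 arrays for C1qa, C1qb, C1qc and Cfp and for Clec4f, Adgre1, Cd5l, Marco and Cd68, and overlap with them for Vsig4, Timd4 and Csf1r.

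The sequences upstream of C1qb and C1qc are shown because the C1q chains form one protein and the log2 fold changes of all 3 were below 0, although C1qb was not called. RefSeq promoters (GRCm38.p6) were matched by symbol for 32 of the 42 genes, among them C1qb and C1qc but not C1qa. In the 250 bases before the start, both hold 1 match to AGGAAGT, a core recognised by factors of the ETS family such as PU.1, which is known from macrophages. Both strands were searched, and both matches are on the strand opposite to the gene. Capitals mark the match in the following 30 bases, which are chr4:136886235-136886264 for C1qb and chr4:136893091-136893120 for C1qc, both on the minus strand.
C1qb: caggacctgaaACTTCCTgagggcagcagg
C1qc: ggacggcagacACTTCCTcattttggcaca
Among the 32 genes, Masp2 also holds a match. These letters occur in 7.69% of 32851 mouse promoters of this length, and a match is no evidence of a bound site. The reference sequence is that of C57BL/6, and the NZO sequence was not analysed here.

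The remaining genes of the arm, C2 and C4b, encode the components of the C3 convertase of the classical and lectin pathways. C4b levels were 8.82, 8.68, 8.90 and 8.79 in NZO and 8.73, 8.69, 8.73 and 9.09 in B6. The strains overlapped, with B6 mouse 015 again highest. The log2 fold change was -0.01 (95% confidence interval -0.28 to 0.25) for C4b and 0.08 without B6 mouse 015. The probe of C4b also lists an accession of C4a, a near-identical copy, and both cannot be told apart. C2 had the same mean level of 6.58 in both strains.

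In the lectin pathway, mannose-binding lectins recognise microbial sugars, and the proteases Masp1 and Masp2 cleave the next components. Mbl2 levels were 9.20, 8.95, 9.08 and 9.0 in NZO and 8.20, 8.33, 8.31 and 8.29 in B6. The groups were separated by more than the range within either strain. Mbl2 was 1.71-fold higher in NZO (log2 fold change 0.77, SE 0.09, adjusted p = 0.000754; probe at chr19:30314044-30314103, mm9). It was called without each of the 8 mice in turn, with log2 fold changes between 0.73 and 0.81. Mbl1, the second lectin of this kind in mice, had a log2 fold change of 0.01 (adjusted p = 0.971).

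Masp2 was measured by 3 probes, which gave different results. The brightest probe (chr4:147978456-147978515) had a log2 fold change of -0.20 (adjusted p over all probes = 0.298) and a neighbouring one (chr4:147977855-147977914) of -0.34 (adjusted p = 0.094). The third probe (chr4:147989478-147989537), which is assigned to another transcript of Masp2 in the files, had levels of 0.03, 0.20, 0.49 and 0.42 in NZO and 1.11, 0.94, 1.22 and 0.96 in B6. The strains overlapped for the first probe, while for the second and the third all NZO arrays were below all B6 arrays. Its log2 fold change was -0.77 (SE 0.13, adjusted p = 0.0053). Over all 27639 probes, 7.44% were called lower in NZO and 6.78% higher. Masp2 codes for a full-length protease and, by alternative splicing, for a short protein without protease domain. The 3 probes of Masp1 had log2 fold changes of 0.14, 0.10 and -0.32, and none of them was called.

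**Figure D3:**
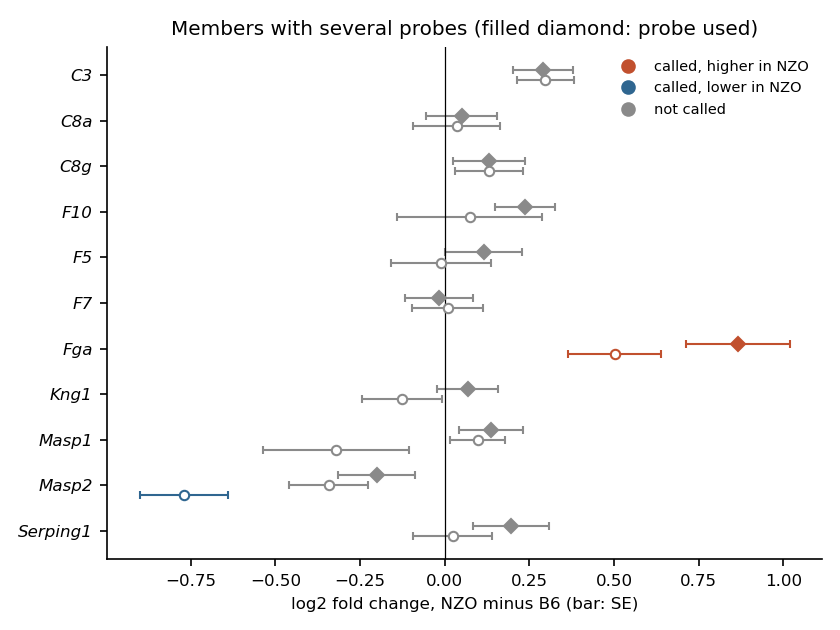
Log2 fold change of NZO against B6 (x axis, bars are standard errors) for every tested probe of the 11 genes with several probes; filled diamonds mark the probe that stands for the gene and colours the call over all probes. Both Fga probes lie to the right of 0 and are called, and of the 3 Masp2 probes only the lowest is called.

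C3 is the component on which all routes converge, and in the alternative pathway it forms a convertase with factor B, which is activated by factor D, and properdin stabilises this convertase. C3 levels were 10.75, 10.59, 10.65 and 10.69 in NZO and 10.33, 10.44, 10.31 and 10.44 in B6. All NZO arrays lay above all B6 arrays. The log2 fold change was 0.29 (95% confidence interval 0.10 to 0.48), and the adjusted p of 0.0558 missed the threshold. The second C3 probe gave 0.30. Over the alternatives of processing, the log2 fold change of C3 ranged from 0.063 to 0.353. It was 0.063 with the deposited table as given and 0.065 with quantile normalization. Cfb, encoding factor B, had a log2 fold change of 0.01 (adjusted p = 0.943).

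Cfp, which lies on the X chromosome and encodes properdin (probe at chrX:20502742-20502801, mm9), was lower in NZO. Cfp levels were 3.27, 3.56, 3.25 and 3.25 in NZO and 3.89, 3.94, 4.11 and 4.36 in B6. The lowest B6 array was above the highest NZO array, mouse 007. Cfp was 1.68-fold lower (log2 fold change -0.75, SE 0.13, adjusted p = 0.00707) and was called without each mouse in turn. The difference was -0.89 on the first scan day and -0.44 on the second, where mouse 007 was the only NZO mouse. Cfp moved with the Kupffer cell markers described above, and their part in it was not tested.

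Cfd encodes factor D, the protease that activates factor B and that is known as adipsin from adipocytes. Its probe was well above background on 1 NZO and 3 B6 arrays. Cfd levels were -4.33, -3.94, -5.06 and -4.86 in NZO and -3.45, -3.58, -4.34 and -4.04 in B6. The strains overlapped, and Cfd did not meet the detection rule for testing. Adipoq, Plin1 and Lep, which define adipocytes, were at background on all 8 arrays, whereas Cidec, Fabp4 and Car3, which hepatocytes can also express, were detected on all of them, with Car3 higher in NZO.

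The membrane attack complex is assembled from C5, C6, C7, the 3 chains of C8 and C9. Hc levels, for C5, were 8.07, 8.00, 8.15 and 8.14 in NZO and 8.51, 8.52, 8.63 and 8.72 in B6. The strains did not overlap, and the spread within each was small. Hc was 1.42-fold lower in NZO (log2 fold change -0.50, SE 0.09, adjusted p = 0.00671; probe at chr2:34838899-34838958, mm9) and was called without each mouse in turn.

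C6 levels were 4.28, 4.23, 3.81 and 4.23 in NZO and 4.97, 5.14, 5.06 and 4.34 in B6. B6 mouse 015 was close to the NZO mice, unlike the other B6 mice, yet the strains did not overlap. C6 was 1.67-fold lower in NZO (log2 fold change -0.74, SE 0.20, adjusted p = 0.0392; probe at chr15:4748363-4748422, mm9). Without B6 mouse 015 the log2 fold change was -0.92 (adjusted p = 0.00628). Leaving out any of the other 7 mice ended the call, with adjusted p up to 0.103. It was also lost with the slide as a random block (adjusted p = 0.0554) and with a fixed term for scan day (adjusted p = 0.0599).

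The other genes of the terminal pathway did not pass the test. C8g levels were 9.23, 9.06, 8.86 and 9.03 in NZO and 8.92, 8.81, 8.94 and 8.99 in B6, which overlapped. Its log2 fold change was 0.13 (adjusted p = 0.461). C8a and C9 had values of 0.05 and 0.19. C8b had 0.33, with a confidence interval from 0.03 to 0.63 and an adjusted p of 0.138. Thus Hc and C6 were lower while no gene for C8 or C9 was called, and the difference between these genes was not tested.

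**Figure D4:**
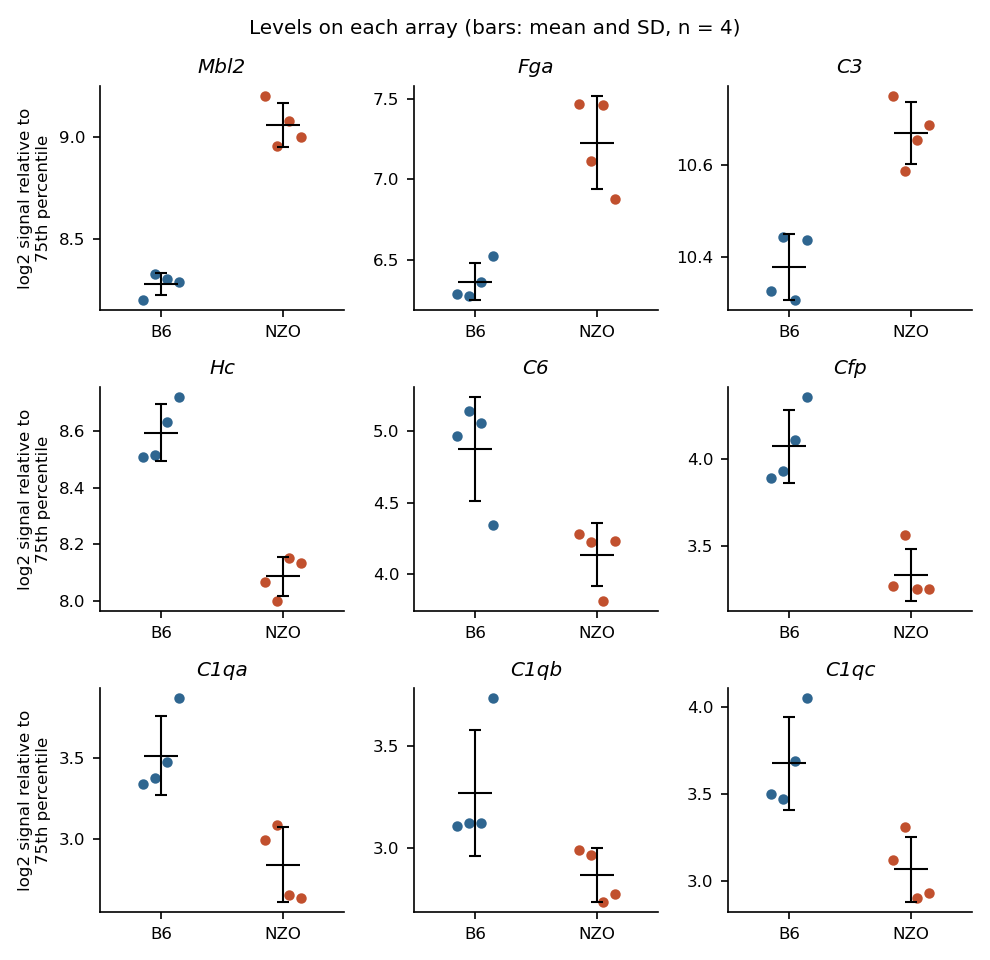
Level on each array (y axis, log2 signal relative to the 75th percentile of the array; scales differ between panels) for the 7 called genes and for C3 and C1qb; blue points are B6, red points are NZO, and black bars are the mean and SD of 4 mice. The strains do not overlap in any panel, and B6 mouse 015 is the highest B6 point for C1qa, C1qb, C1qc, Cfp, Hc and Fga and the lowest for C6.

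The inhibitors of complement were represented by 3 genes. Factor I degrades C3b and C4b, C4b-binding protein serves as its cofactor, and the C1 inhibitor (Serping1) blocks C1 and the contact proteases. Cfi levels were 8.28, 8.05, 8.41 and 8.11 in NZO and 8.06, 8.09, 8.10 and 8.28 in B6. The strains overlapped, and the log2 fold change was 0.08 (adjusted p = 0.677). The values for C4bp and Serping1 were -0.03 and 0.19, and neither was called.

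None of the 5 genes of the contact and intrinsic pathway was called. Kng1 encodes kininogen, the source of bradykinin. Its levels were 10.23, 10.11, 10.26 and 10.09 in NZO and 10.15, 10.07, 10.02 and 10.18 in B6, which overlapped, and the log2 fold change was 0.07. The second Kng1 probe had -0.13, and both probes also list accessions of Kng2. F12, encoding the first protease of the pathway, had a log2 fold change of -0.23 with all NZO arrays below all B6 arrays (adjusted p = 0.132). F9, whose loss causes haemophilia B, had 0.29 (adjusted p = 0.145). Klkb1 and F11 had values of 0.00 and 0.13.

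In the extrinsic and common pathway, F7, F10, F5 and F2 lead from tissue factor to thrombin. F2 levels, for prothrombin, were 9.28, 9.17, 9.16 and 9.19 in NZO and 8.99, 9.0, 9.01 and 9.18 in B6. B6 mouse 015 was apart from the other B6 mice and within the range of NZO. The log2 fold change of F2 was 0.15 (adjusted p = 0.296), and 0.20 without this mouse. F10 had a log2 fold change of 0.24, with all NZO arrays above all B6 arrays (adjusted p = 0.105), and its second probe had 0.07. The 2 probes of F5 had values of 0.12 and -0.01, and those of F7 had -0.02 and 0.01.

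Fibrinogen consists of 3 chains encoded by Fga, Fgb and Fgg, which lie next to each other on chromosome 3. Fga levels were 7.46, 7.11, 7.46 and 6.87 in NZO and 6.29, 6.27, 6.36 and 6.52 in B6. All NZO arrays lay above all B6 arrays. Fga was 1.82-fold higher in NZO (log2 fold change 0.86, SE 0.15, adjusted p = 0.00619; probe at chr3:82835678-82835737, mm9) and was called without each mouse in turn. The second Fga probe (chr3:82837260-82837319) was also higher, with a log2 fold change of 0.50 (adjusted p over probes = 0.0462). Its levels were 5.88, 5.78, 5.87 and 5.53 in NZO and 5.39, 4.95, 5.40 and 5.32 in B6, again without overlap.

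Fgb levels were 10.73, 10.34, 10.57 and 10.30 in NZO and 10.37, 10.38, 10.37 and 10.70 in B6. The strains overlapped, and B6 mouse 015 reached the range of the highest NZO arrays. The log2 fold change was 0.03 (95% confidence interval -0.27 to 0.33) and 0.11 without this mouse. Fgg had a log2 fold change of 0.18 (95% confidence interval -0.06 to 0.41, adjusted p = 0.298). Thus 1 of the 3 chains was called, and the interval of Fga (0.52 to 1.21) lay above those of the other chains, while the difference between chains was not tested. F13b, for the carrier subunit of factor XIII, had a value of 0.01.

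The sequences before the fibrinogen genes are shown because the chains are secreted as one protein while their array results differed. Motifs known from acute-phase genes were searched on both strands of the 250 bases before the start, namely TTGCNCAA, a form of the C/EBP site, and CTGGGAA, the core of the element for interleukin 6. They share no overlapping match here. Fga holds only the first, Fgb both and Fgg only the second. Capitals mark the matches in 30 bases of chr3:83026007-83026036 (plus strand) for Fga, chr3:83049930-83049959 (minus strand) for Fgb and chr3:83007694-83007723 (plus strand) for Fgg (GRCm38.p6).
Fga: gctacagagaaTTGAGCAAgagtttctggg
Fgb: gcttgCTGGGAAgatgTTGCTCAAatgata
Fgg: aaacctgtgcgcaaaatCTGGGAAtccctc
Of 32851 mouse promoters, 2.61% hold the first motif and 9.1% the second. Among the 32 genes with a promoter in the table, the first was found in F9, Fga and Fgb and the second in F9, Fgb, Fgg and Masp2. The letters alone show neither binding nor a reason for the difference between the chains.

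The 4 anticoagulants were Serpinc1, encoding antithrombin, Serpind1, encoding heparin cofactor II, and Proc and Pros1, encoding the proteins C and S. Serpinc1 levels were 9.76, 9.63, 9.76 and 9.66 in NZO and 9.54, 9.55, 9.59 and 9.61 in B6. All NZO arrays lay above all B6 arrays, but by little, and the log2 fold change of 0.13 was not called (adjusted p = 0.352). Pros1 had a value of -0.21 (adjusted p = 0.204), with all NZO arrays below all B6 arrays. Proc and Serpind1 had values of 0.09 and 0.11.

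In fibrinolysis, plasminogen (Plg) is the precursor of plasmin, Serpinf2 its inhibitor and vitronectin (Vtn) a partner of the inhibitor of plasminogen activators. Vtn levels were 9.42, 9.36, 9.35 and 9.29 in NZO and 9.18, 9.19, 9.25 and 9.39 in B6, which overlapped through B6 mouse 015. The log2 fold change was 0.10 (adjusted p = 0.502). Plg and Serpinf2 had values of 0.12 and 0.22, and neither was called. Of the 34 genes that were not called across all arms, 6 had an unadjusted p of at most 0.05 (C1qb, C3, C8b, F12, F9 and F10), beside 15.8% of all genes that were not called. For 33 of the 34 the 95% confidence interval of the log2 fold change lay within 0.7 of 0, the exception being C1qb.

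Of 60 further genes of both cascades, 48 were tested, and 3 of them were higher and 11 lower in NZO (8 lower and 2 higher without B6 mouse 015). Their median log2 fold change was -0.09. Among all genes tested, 7.35% were called higher and 7.43% lower. Without B6 mouse 015, 1265 of 20136 genes were called higher and 1179 lower. Among components, Fcna, encoding ficolin A of the lectin pathway and known from macrophages, was 1.73-fold lower (log2 fold change -0.79, adjusted p = 0.00144), and Cpn1, encoding a subunit of the carboxypeptidase that inactivates anaphylatoxins, was 1.33-fold higher (adjusted p = 0.0463, and 0.0839 without B6 mouse 015). The other 8 tested components, including C1ra, C1s1, Colec10 and Colec11, were not called.

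Receptors and regulators of complement held 5 lower genes and 1 higher gene out of 16, and 3 lower and 0 higher without B6 mouse 015, where Itgax, C1qbp and Cr1l, a membrane regulator of complement (adjusted p = 0.0331, and 0.0536 without this mouse), were no longer called. C5ar2, encoding a receptor for C5a, had levels of -2.24, -1.83, -1.95 and -2.25 in NZO and 0.05, -0.16, 0.19 and 0.37 in B6. It was detected on all arrays and was 4.53-fold lower in NZO (log2 fold change -2.18, SE 0.15, adjusted p = 5.4e-05), with log2 fold changes from -3.67 to -1.16 over the alternatives of processing. Itgax, a chain of complement receptor 4, was lower in NZO (adjusted p = 0.0357) but was detected on 2 of 4 NZO arrays and had log2 fold changes from -2.66 to -0.37 over the alternatives, and its call was lost without B6 mouse 015 (adjusted p = 0.0891). Cd59b and Cd55, which protect cells from complement, were 2.49-fold (adjusted p = 0.00042; log2 fold change -1.39 to -0.34 over the alternatives) and 1.62-fold (adjusted p = 0.0103) lower. C1qbp, a binding protein for C1q that also resides in mitochondria, was 1.37-fold higher (adjusted p = 0.0232, and 0.0632 without B6 mouse 015).

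Of 12 tested clotting factors and inhibitors outside the 42 genes, 4 were lower and none was higher. Without B6 mouse 015, 3 were lower, and Procr (adjusted p = 0.0363) and Serpina10 (adjusted p = 0.0337) were higher. F2r, the thrombin receptor, was 2.62-fold lower in NZO (adjusted p = 0.000144). Thbd, encoding thrombomodulin, was 2.39-fold lower (adjusted p = 0.000164; log2 fold change -1.33 to -0.70 over the alternatives), and Tfpi, the inhibitor of the tissue factor pathway, was 1.80-fold lower (adjusted p = 0.00906). Thbd levels were -1.34, -1.50, -1.18 and -1.57 in NZO and -0.24, -0.05, -0.14 and -0.12 in B6, far apart. F13a1, the catalytic subunit of factor XIII, was lower (adjusted p = 0.0185) but detected on 1 of 4 NZO arrays, had log2 fold changes from -2.94 to -0.13 over the alternatives, and had an adjusted p of 0.0524 without B6 mouse 015. Thbd and Tfpi are known from endothelial cells. Of 6 endothelial markers, all detected on every array, Stab2 was higher, Lyve1 was lower, and Pecam1, Kdr, Clec4g and Tek were not called. Their summed signal was 104, 100.3, 82.4 and 78.2 in NZO and 83.8, 84.2, 88.5 and 77.7 in B6, with Clec4g the brightest, and their part in these values was not tested.

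Serpine2, an inhibitor of thrombin and plasminogen activators, was the only called gene of the 4 tested in fibrinolysis. Its levels were -3.61, -3.24, -3.96 and -4.09 in NZO and -0.76, -0.67, -1.22 and -1.98 in B6, and it was detected on 2 of 4 NZO arrays. It was lower in NZO (adjusted p = 0.00101), with log2 fold changes from -3.03 to -0.72 over the alternatives. Of the 6 genes of the vitamin K cycle and factor export, Mcfd2, which carries factors V and VIII out of the endoplasmic reticulum, was 1.36-fold higher (adjusted p = 0.0387, and 0.095 without B6 mouse 015), and Ggcx, Vkorc1, Vkorc1l1, Nqo1 and Lman1 were not called.

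**Figure D5:**
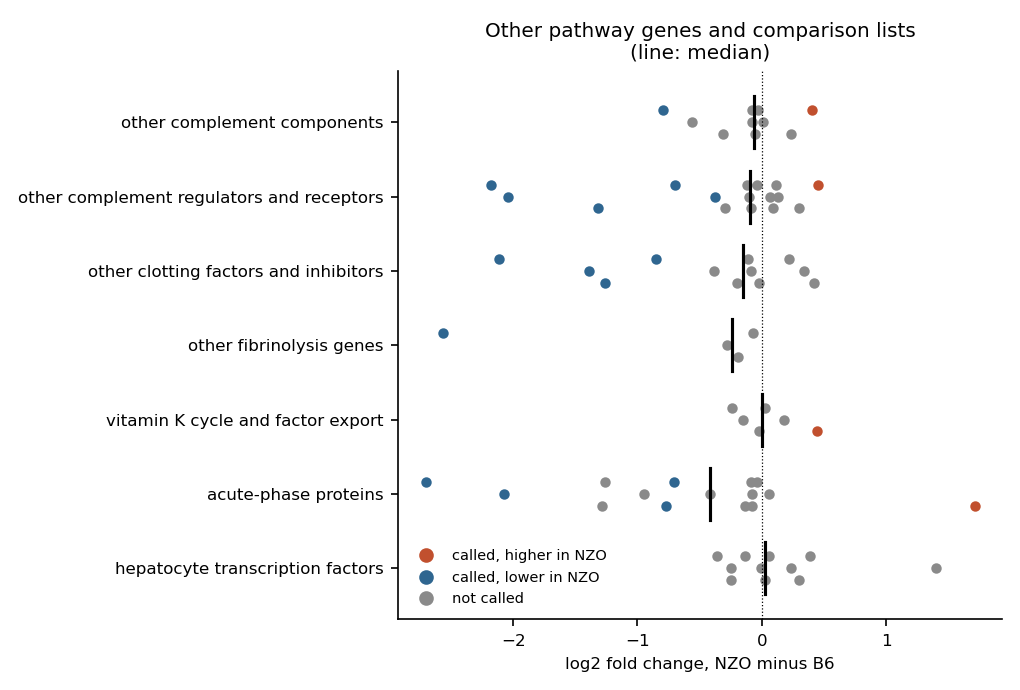
Log2 fold change of NZO against B6 (x axis) for tested genes of the other pathway lists and the comparison lists (y axis); each point is 1 gene coloured by its call, and black lines are medians. Called genes of the complement receptors and of the clotting factors lie mostly to the left of 0, and the hepatocyte transcription factors hold no called gene.

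Several genes of both cascades, among them C3, Fga, Fgb and Fgg, are known to respond to interleukin 6 with other acute-phase genes. Of 15 acute-phase genes, 4 were lower and 1 was higher in NZO, with a median log2 fold change of -0.42, which was -0.12 without B6 mouse 015. Lcn2 (6.51-fold, adjusted p = 0.0202), Orm3 (4.2-fold, adjusted p = 0.0232), Orm1 (1.70-fold, adjusted p = 0.0389) and Orm2 (1.63-fold, adjusted p = 0.0457) were lower, and these Orm genes are similar enough to share signal. All 4 were also called without B6 mouse 015, with log2 fold changes of -2.08, -1.52, -0.56 and -0.51. Apcs, encoding serum amyloid P component, was 3.28-fold higher (adjusted p = 0.0049). Its levels were 5.36, 5.58, 5.80 and 5.04 in NZO and 3.27, 3.55, 3.58 and 4.54 in B6. None of 11 hepatocyte transcription factors, including Hnf4a and Cebpa, was called.

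Other cell types were followed by their markers. Of 4 red blood cell markers, Hba-a1 and Alas2 were higher in NZO, and the summed signal was 318, 366, 470 and 293 in NZO and 197, 165, 208 and 155 in B6, with Hba-a1 the brightest. Without B6 mouse 015 the adjusted p of Hba-a1 was 0.0515. Of 8 neutrophil markers, 7 were tested and Ly6g and Camp were higher, with summed signals of 15, 11.7, 11.2 and 14.8 in NZO and 6.96, 5.55, 11 and 13 in B6 and S100a9 the brightest, while S100a8 and S100a9 had log2 fold changes of -0.03 and -0.20. Mpo was called higher as well when B6 mouse 015 was left out (adjusted p = 0.0132). Of 5 platelet markers, Pf4 was lower (log2 fold change -0.51, adjusted p = 0.0374, and 0.0926 without B6 mouse 015), and the summed signal was 1.39, 1.72, 1.48 and 1.46 in NZO and 1.89, 1.79, 2.29 and 2.34 in B6, with Pf4 the brightest. The part of these markers in Mbl2, Fga, Hc and C6 was not tested.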

How the data were processed

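Liver RNA of 4 NZO and 4 B6 mice had been hybridised by the authors to 1-colour Agilent arrays whose probe positions refer to mm9. The deposited intensity values came from Agilent's Feature Extraction software, version 11.0.1.1 per the file headers and 9.1 in the submitters' processing notes. The processed signal has its background subtracted and is not scaled between arrays. The authors also deposited a table named as normalized, which equalled the raw median intensity for all 59305 spots of each array.

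After removal of controls and of the 96 to 137 spots per array marked as outliers, processed signals were converted to log2, set relative to the array's own 75th percentile and averaged within probes. Between 50.4% and 60.0% of spots were well above background, and 0 were saturated. The brightest probe stood for a gene, and 20136 genes detected on all 4 arrays of at least 1 strain were fitted with limma 3.58.1 in R 4.3.3 (lmFit and eBayes, no covariate, two-sided). The p-values were adjusted after Benjamini-Hochberg over all genes. Names were those of the files for the 42 genes and otherwise taken from the mouse gene table of GRCm38.p6 by accession (27603 probes), symbol (3399) or synonym (321), with 24303 probes keeping the file's name. Figures were made with matplotlib 3.10.9 in Python 3.11.15.

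The genes, arms and lists were chosen with earlier results of these data known. Of the 42 genes, levels on every array are given for those called with a log2 fold change of at least 0.7 in either direction, for those not detected in both strains, for the brightest gene of each arm and for the C1q chains, with Hc, the probes of Masp2 and Fga and, outside the 42 genes, Saa1, C5ar2, Thbd, Serpine2 and Apcs added after their values were seen. In the other pathway lists, at most the 5 called genes with the largest change are named, to which Cr1l, Procr and Serpina10 were added after their values were seen. The labels name separate mice, and the number of arrays limits the precision. The arrays lay on 5 slides and 2 scan days, and 1 slide held both strains. Alternatives were normexp background correction (offset 50), quantile normalization, the deposited table, no filter, the mean over probes, slide, scan day or mouse number as a term, the Welch test of the methods and leaving out each mouse. The comparison was tested on simulated data.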

Additional observations from a re-analysis of the deposited data

Results flagged for a closer look

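In 6 of 84 groups of 4 arrays, 1 array lay apart from the other 3 beyond the 95% limit of Dixon's gap test, and chance flags about 1 in 20 groups. In B6, mouse 015 was highest for C1qb (3.73), C4b (9.09), F2 (9.18) and Fgb (10.70). In NZO, mouse 007 was highest for Cfp (3.56) and mouse 009 was lowest for C6 (3.81). Cfp was called without each mouse in turn, and C6 was not called without NZO mouse 009.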

How the results depend on the processing

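Direction held for Mbl2, Fga, C1qa, C1qb, C1qc, Cfp, Hc, C6 and C3 under all 19 alternatives. It could not change when 1 mouse was left out, since the strains did not overlap for these genes. Nor could it with the Welch test or without the filter, which gave the same log2 fold changes as the main fit. Mbl2, Cfp and Hc passed the adjusted threshold in 17 of the 19 alternatives, Fga in 16, C1qa in 11, C1qc in 8, C6 in 6, C3 in 2 and C1qb in 1. After adjustment, 0 of the 41 genes were higher and 0 lower with the slide as a fixed term, where 5 of 41 had an unadjusted limma p of at most 0.05 (21.6% of all genes), and with the mouse number as a replicate block, where 6 had one (22.4% of all genes). Numbers 009 and 011 occur in both strains, and same-numbered mice deviated with correlations of -0.26 and 0.01, against -0.35 to 0.35 for pairs with different numbers. Both same-numbered pairs were scanned on different days, so these correlations cannot show whether mice with the same number share more than the number. The block left 53 higher and 67 lower genes among all genes tested, against 1480 and 1497. The count of lower genes was 2 without the filter on dim probes (more genes tested), 2 with the Welch test and 3 with a fixed term for the scan day, which was added after seeing the data. Among all genes, these 3 fits called 1102 of 34779, 882 of 20136 and 1494 of 20136 lower. Without 1 mouse, counts among the 41 genes ranged from 2 to 2 for higher and from 2 to 4 for lower genes. At the thresholds of the methods, the higher genes were 1 with quantile normalization or the mean over probes and 0 with the deposited table as given, and the lower genes were 5 with that table and 1 with the slide or scan day as a fixed term. Without 1 mouse, these ranged from 2 to 2 and from 1 to 3, and the median log2 fold change from 0.04 to 0.11. The deposited table as given, which has no scaling between arrays, shifted the median of all genes by -0.18, moved the median of the cascade genes to -0.16, and left 23.4% of all called genes higher in NZO, against 49.7%. Setting that table to the 75th percentile, also added after seeing the data, gave the same 2 higher and 5 lower genes. F12 was also called lower with normexp, quantile normalization and the deposited table as given, which added C1qb. With the Welch test, C3, F10 and Mbl2 were higher and Cfp and Hc lower, and Fga was not called. The mean over probes added C3 as higher and Masp2 as lower.

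No called gene changed sign, but of all 41 genes 21 did with the deposited table as given, 11 with quantile normalization and 7 with normexp. Values are given for the genes followed in detail. With the deposited table as given they were -0.067 for C8g, -0.19 for Cfi, -0.14 for Kng1, -0.0398 for F2, -0.18 for Fgb, -0.14 for Serpinc1 and -0.12 for Vtn. With quantile normalization they were -0.028 for Cfi, -0.0903 for Kng1 and -0.19 for Fgb, and with normexp -0.0095 for Cfi and -0.021 for Fgb. The mean over probes gave -0.029 for Kng1, scan day gave -0.015 for Fgb, and the replicate block gave 0.12 for C4b and 0.15 for Timd4. Leaving out 1 mouse gave C4b values from -0.054 to 0.082 (above 0 without NZO 007 or B6 015) and Fgb values from -0.051 to 0.11 (below 0 without NZO 003). The cause was not tested. Cfd, detected on 4 of 8 arrays, was tested only without the filter on dim probes, where it was not called.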
